A study of Sus scrofa with 10 samples.

Results

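The number of follicles a sow ovulates sets how many oocytes enter her oviducts, and these sows differed in that number. RNA of the ampullary-isthmic junction, the stretch of oviduct where eggs and sperm meet, was compared between 5 sows with 28 or more ovulated follicles and 5 sows with 26 or fewer, which together are all 10 sows of the series. The sows with many follicles were AI943 and AI993, which were inseminated, and AI788, AI1061 and AI992, which were not. The sows with fewer were AI837, AI1059 and AI792, which were inseminated, and AI991 and AI696, which were not. The letters AI stand before every sow number in the labels, inseminated or not. All were Landrace x Large White hybrid sows in natural oestrus after weaning, with no hormones given, and the inseminated sows received semen at the cervix. The classes follow follicle numbers seen in the animals and were not assigned, and each sow gave 1 single-colour porcine array.

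The ampulla receives the cumulus-enclosed eggs shed by the follicles, and its ciliated and secretory epithelium moves and bathes them. The muscle coat of the isthmus and junction contracts around them. After ovulation each follicle wall turns into a corpus luteum, which makes progesterone, and ovarian steroids act on the oviduct through their receptors. Cumulus cells and eggs are the cells that ovulation itself adds to the lumen, and the oviducts were not flushed before sampling.

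Each array gave 45220 features, whose log2 intensities the authors had background-corrected and quantile normalized, with a median of 7.09 and a highest value of 16. Differences are compressed near 16, and values near or under the median come from dim features. A gene symbol was paired with 10290 features, which gave 4560 genes, and features of the same gene were averaged. OVGP1, the oviduct-specific glycoprotein of the secretory epithelium, read 15.95 on average with an SD of 0.03 over the sows with many follicles and 0.01 over those with fewer, so that it lay near the upper end of the scale in all sows. Sow AI1061 stood apart. Its array correlated with those of the other sows at a median r of 0.944, while the medians of the other 9 arrays ran from 0.971 to 0.98. Where leaving it out moved the difference of a gene printed below by more than 1.5 times, or turned it, the value without it is given. Of 114 named genes 78 moved that far when at least 1 of the 10 sows was left out. Some of these had small differences, where a slight change passes that ratio, and some were named for a value in 1 sow. Single differences are therefore to be read with the values of the sows.

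No transcript passed the test between the follicle classes. Differences are the mean of the sows with many follicles minus that of the sows with fewer, adjusted for insemination, on the log2 scale. With limma and Benjamini-Hochberg adjustment over all features, 0 of 45220 (0%) had an adjusted p under 0.05, and the smallest was 0.99996. At an unadjusted p under 0.05 limma gave 371 features higher (0.82%) and 420 lower (0.929%) in sows with many follicles, 791 in all or 1.75%, and an equal-variance test gave 1108, with 0 after adjustment. The 1.75% lay under the share of 0.05 that this threshold passes on average where nothing differs. Over genes the adjusted count was 0 of 4560 (0%), with a smallest adjusted p of 0.999. At an unadjusted p under 0.05 limma gave 22 genes higher (0.482%) and 31 lower (0.68%), and the equal-variance test gave 79 genes in both directions together. A 2-fold difference was reached by 81 features in the higher and 41 in the lower direction, and 0 of these had an adjusted p under 0.01. Without sow AI1061 the count of features at an unadjusted p under 0.05 was 1163, and 135 had a 2-fold difference.

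The typical gene differed little. The median of the absolute difference over the 4560 genes was 0.08 and the median standard error 0.15. Of the genes, 2526 (55.4%) were lower and 2034 higher in mean in sows with many follicles, and the median difference was -0.02. A difference that misses the threshold here does not show that the classes were alike.

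**Figure D1:**
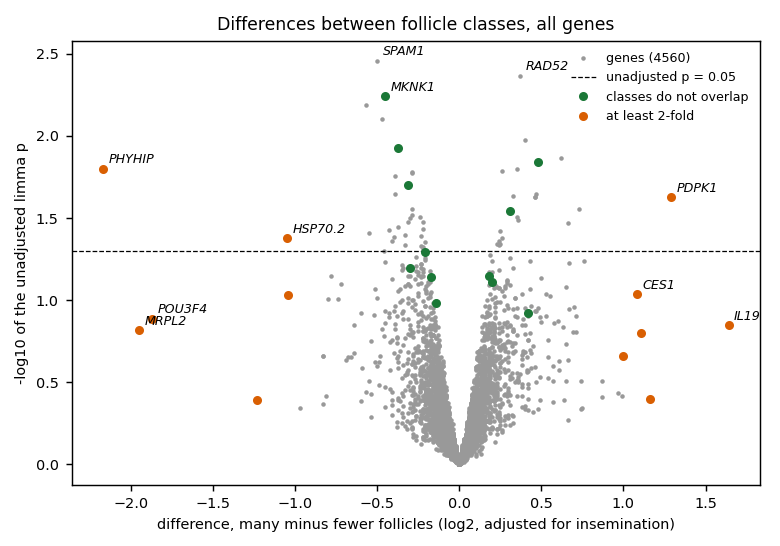
Difference between the follicle classes (horizontal axis, log2, many minus fewer, adjusted for insemination) against the -log10 of the unadjusted limma p (vertical axis) for 4560 genes, each a point. Green points are the 12 genes whose classes do not overlap, orange points the 12 with at least a 2-fold difference, and the dashed line marks the unadjusted threshold. The 2 sets have no gene in common.

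Single genes are given below by their value in each sow, first in AI943, AI993, AI788, AI1061 and AI992 (many follicles) and then in AI837, AI1059, AI792, AI991 and AI696 (fewer). Their test is a two-sided exact permutation test of the follicle class within the inseminated and within the non-inseminated sows, which has 100 arrangements and a smallest possible p of 0.01. None of the genes below passed limma's adjustment, where every one had an adjusted p of 0.999. They were chosen by their values in this same comparison. Their exact p-values therefore describe the chosen differences and are no independent test.

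In 12 genes every sow of one class lay above every sow of the other. Sows with many follicles were the higher class in 5 of them (0.11% of all genes) and the lower class in 7 (0.154%). These genes were picked out by that separation after the values were seen, so that their exact p-values describe it and are no independent test. Among 4560 genes some separate in this way by chance, so that the count itself does not mark a difference between the classes. Only MKNK1 and LHB of the 12 had a mean level above 7.29, the 40th percentile of gene levels.

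MKNK1 encodes a kinase that phosphorylates the cap-binding translation factor eIF4E. It read 7.99, 8.2, 8.4, 7.97 and 8.18 in sows with many follicles and 8.83, 8.44, 8.46, 8.75 and 8.46 in sows with fewer. The highest sow of the first class, AI788, lay 0.04 under the lowest of the other, and both features of the gene were lower. Its difference was -0.45 (standard error 0.13), with -0.48 in inseminated and -0.42 in non-inseminated sows, and -0.40 without AI1061.

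LHB encodes the beta subunit of luteinizing hormone, the pituitary signal for ovulation. Sows with many follicles read 8.23, 8.31, 8.3, 7.77 and 8.24, and sows with fewer 8.53, 8.37, 8.32, 8.34 and 8.79. The classes were separated by 0.01 only, and AI1061 was the lowest sow by a wide margin. The difference was -0.30 (standard error 0.14), -0.21 without that sow and -0.18 without AI696, the highest.

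Among the dimmer genes, CYP11A1, the cholesterol side-chain cleavage enzyme that opens steroid synthesis, read 6.66, 6.7, 6.62, 6.59 and 6.74 in sows with many follicles and 6.88, 6.81, 6.8, 6.78 and 6.77 in sows with fewer. The classes lay 0.03 apart and the difference was -0.14 (standard error 0.08). Most of it came from 1 of the gene's 4 features, which differed by -0.34, while the other features differed by -0.07 to -0.08. KCNE1, a regulatory subunit of potassium channels, differed by -0.37 (standard error 0.12), SPAG5, a protein of the mitotic spindle, by -0.31 (0.11), GHSR, the ghrelin receptor, by -0.21 (0.10), and PFKFB1, an enzyme that sets the level of a regulator of glycolysis, by -0.17 (0.08). The gaps between the classes in these genes were 0.03 or less. PFKFB1 likewise leaned on 1 of its 4 features, which differed by -0.46, the others by -0.04 to -0.14. The features of SPAG5 differed by -0.06, -0.32 and -0.54.

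In the other direction ATXN7, a subunit of a histone acetyltransferase complex, read 7.39, 7.37, 7.33, 8.05 and 7.32 in sows with many follicles and 7.19, 6.85, 6.92, 7.17 and 6.81 in sows with fewer. This was the widest gap of the 12 genes, 0.13, and AI1061 was the highest sow. The difference was 0.48 (standard error 0.16), and 0.37 without AI1061. The inward rectifier channel gene KCNJ15 showed the same sow more strongly, with 6.92, 6.95, 6.88, 8.17 and 6.91 against 6.79, 6.85, 6.76, 6.75 and 6.46, and its difference of 0.42 (standard error 0.25) was 0.20 without it. LOC100152023 was higher by 0.31 (0.12), the transcription factor gene PLAG1 by 0.20 (0.10) and the transcription factor gene KLF14 by 0.18 (0.09).

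**Figure D2:**
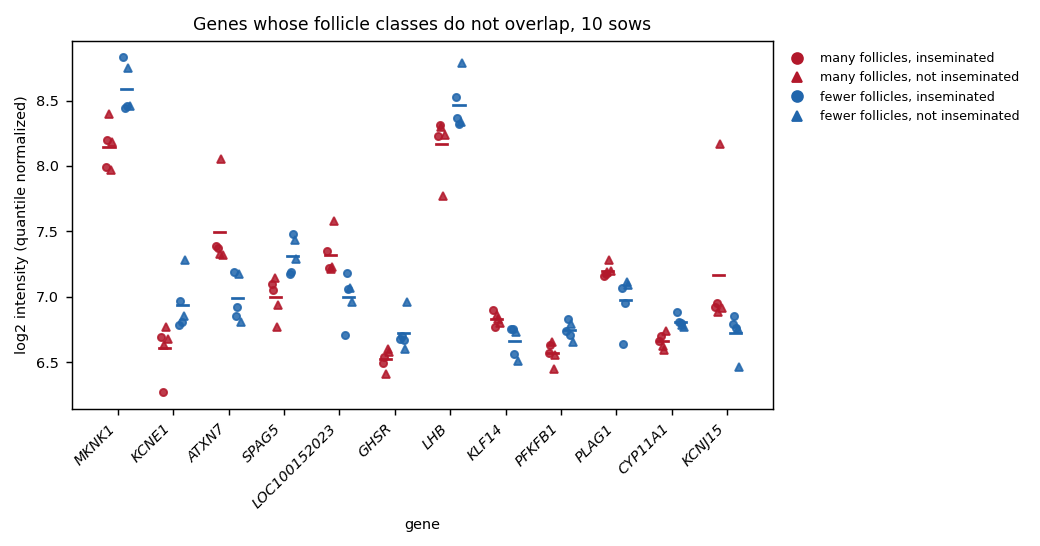
Log2 intensity (vertical axis) of the 12 genes whose follicle classes do not overlap, with 1 point per sow and the class mean as a bar. Red marks many and blue fewer follicles, circles inseminated and triangles non-inseminated sows. The gaps between classes run up to 0.13, and single sows such as AI1061 at 8.17 in KCNJ15 lie far from the rest.

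The smallest unadjusted p-values belonged partly to other genes, which were also chosen after their values were seen. RAD52, a protein of DNA repair by homologous recombination, read 9.41, 9.25, 9.01, 9.31 and 8.96 in sows with many follicles and 9, 8.97, 8.82, 8.67 and 8.82 in sows with fewer. AI992 lay within the range of the fewer class, so that the classes overlapped. The difference was 0.37 (standard error 0.10, exact permutation p = 0.01) and 0.33 without AI1061. SPAM1, a hyaluronidase known from sperm heads, was dim and lower, with 5.92, 6.34, 6.45, 6.84 and 6.53 against 6.73, 6.93, 6.58, 7.06 and 6.93, a difference of -0.50 (standard error 0.13, exact permutation p = 0.02). KIF15, a motor protein of the mitotic spindle, differed by -0.57 (standard error 0.17, exact permutation p = 0.01), and -0.37 without AI696, its highest sow at 8.07. TAC3, the precursor of neurokinin B, differed by -0.47 (standard error 0.14, exact permutation p = 0.04).

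The following genes come from the rule that took the differences of at least 2-fold and then of at least 0.5 with the smallest unadjusted p above the 40th percentile of mean level, 12 in each direction. The largest of these in the higher direction that did not rest on 1 feature was that of CES1, a carboxylesterase that cleaves esters of lipids and drugs. It read 11.81, 11.52, 11.11, 11.64 and 10.28 in sows with many follicles and 9.99, 8.13, 11.26, 10.33 and 11.11 in sows with fewer. The classes overlapped, with AI1059 far below all other sows. The difference was 1.08 (standard error 0.58, exact permutation p = 0.15), a fold of 2.11, and all 7 features of the gene were higher. Without AI1059 it was 0.63. It was 1.87 in inseminated sows, 1.04 without AI1059, and 0.29 in non-inseminated sows, a difference between these of 1.58 (standard error 1.10, adjusted p of limma's interaction 0.998).

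NPW, the precursor of neuropeptide W, read 9.72, 9.98, 8.69, 9.31 and 9.02 in sows with many follicles and 8.85, 8.52, 8.93, 8.77 and 8.95 in sows with fewer. The inseminated sows AI943 and AI993 were the highest, and AI788 lay among the sows with fewer follicles. The 2 features of the gene were high in different sows, however. One read 9.03 in AI993 and 6.68 to 7.3 in all others. The other read 12.38 in AI943 and 11.93 in AI1061, but 10.94 in AI993 and 10.99 in AI837. The difference of the gene mean was 0.62 (standard error 0.21, exact permutation p = 0.04) and 0.59 without AI1061. It was 1.09 in inseminated and 0.14 in non-inseminated sows, and the interaction of 0.94 (standard error 0.30) had an adjusted p of 0.998 in limma.

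VNN1, a pantetheinase that releases the building block of coenzyme A, read 8.92, 8.62, 7.65, 9.4 and 8.79 against 7.75, 8.15, 7.87, 7.66 and 8.58. AI788 was the lowest sow of all and the other sows with many follicles the highest. The difference was 0.67 (standard error 0.31, exact permutation p = 0.13). TIMP2, an inhibitor of matrix metalloproteinases, read 11.35, 12.23, 10.86, 11.09 and 10.99 against 10.08, 11.54, 11.24, 9.86 and 11.18, and its difference of 0.65 (standard error 0.34, exact permutation p = 0.20) lay within this overlap.

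A set of genes was high in the same pair of sows. SREBF1, a transcription factor of fatty acid synthesis, read 11.33 in AI943 and 11.36 in AI1061 and between 9.58 and 10.17 in the other sows. GRK7, a kinase known from photoreceptors, KIR2DL1, named for a receptor of natural killer cells, SLC30A3, a zinc transporter of vesicles, and PHTF1 likewise had AI943 and AI1061 as their highest sows. In all, AI943 and AI1061 were the highest pair in 7 of the 12 genes of this direction. The 12 were chosen as higher in the class of both sows, and that choice partly fixes a high pair from it. Without AI1061 the difference of SREBF1 went from 0.60 to 0.40, that of GRK7 from 0.55 to 0.35, that of KIR2DL1 from 0.58 to 0.35 and that of PHTF1 from 0.69 to 0.30. Without AI943 SREBF1 differed by 0.22 and SLC30A3 by 0.21, against 0.53 in all sows. KIR2DL1 rested on 1 of its 2 features, with a difference of 1.07 in one and 0.09 in the other. GZMH, a protease of cytotoxic granules, was 0.70 higher in mean (standard error 0.40, exact permutation p = 0.16), and PEBP4, a member of the phosphatidylethanolamine-binding proteins, 0.63 (standard error 0.40, exact permutation p = 0.26). The features of GZMH differed by 0.29 and 1.11.

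In the lower direction HSP70.2, an inducible chaperone of the heat shock response, read 10.02, 11.02, 11.69, 10.39 and 10.76 in sows with many follicles and 11.21, 10.26, 12.12, 11.6 and 13.14 in sows with fewer. AI696 was the highest sow and AI943 the lowest, and the classes overlapped through AI788 and AI1059. The difference was -1.05 (standard error 0.45, exact permutation p = 0.06) -0.89 without AI1061 and -0.67 without AI696, and both features were lower.

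TNNI3, an inhibitory troponin subunit known from heart muscle, read 13.19, 13.59, 13.19, 13.02 and 12.89 in sows with many follicles and 14.5, 13.33, 13.61, 13.39 and 14.02 in sows with fewer. AI993 was the only sow with many follicles above the lowest sow of the other class. The difference was -0.55 (standard error 0.23, exact permutation p = 0.07), and all 7 features were lower. EPB41, which links the membrane to the spectrin and actin skeleton, differed by -0.72 (standard error 0.37, exact permutation p = 0.13), and by -0.48 without AI1061, its lowest sow at 12.32.

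Several other genes in this direction followed 1 sow. SLC11A1, a metal transporter of phagosomes, read 10.07 in AI991 and 7.47 to 8.11 in the others, and its 2 features differed in direction. Its difference of -0.74 was -0.18 without that sow. ATAT1, an alpha-tubulin acetyltransferase, read 8.9 in the same sow and 6.71 to 7.38 in the others, and differed by -0.10 without it. FUT1, a fucosyltransferase that makes the H antigen, was lowest in AI943 at 7.13 against 8.46 to 9.45 elsewhere, where 1 of its 2 features read 3.82, and differed by -0.14 without it. CDC20, an activator of the anaphase-promoting complex, was highest in AI696 at 10.2 and differed by -0.20 without it. PARP11, an ADP-ribosyltransferase, differed by -0.51 (standard error 0.27, exact permutation p = 0.14) with no such sow, and AKR1CL1, an aldo-keto reductase, by -0.54 (standard error 0.38, exact permutation p = 0.29) and by -0.33 without AI1061.

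The 2-fold differences at gene level were mostly those of 1 or a few sows in genes with a single feature. There were 12, 6 in each direction, and none of them separated the classes. HOXA13, a homeobox gene of the hind body and limbs, read 14.29 in AI992 and 6.45 to 6.98 in the other 9 sows. POU3F4, a POU-domain transcription factor gene, read 13.54 in AI696 and 6.49 to 6.96 in the others, and GTF3C4, a subunit of an initiation factor of RNA polymerase III, 15.01 in AI1059 and 6.58 to 7.44 in the others. IL19, a cytokine of the interleukin-10 family, read 12.8 in AI943 and 6.36 to 6.88 in the others, and ADIG, known from fat cell differentiation, 11.07 in AI1061 and 6.38 to 7.13 in the others, where its difference of 1.00 became 0.29 without that sow. Each of these 5 genes was measured by 1 feature, so that no other feature shows whether the high value belongs to the gene. IL19 and ADIG, like PHYHIP, PDPK1, LRRC8C and DLX5 below, lie under the level limit of the rule and were chosen after their values were seen.

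Other features fell to the bottom of the scale in some sows. MRPL2, a protein of the mitochondrial ribosome, read 3.61 in AI993 and 3.7 in AI788 and 8.4 to 9.88 in the other sows. PHYHIP, named for its binding of phytanoyl-CoA hydroxylase, read 4.09, 4.07, 3.74, 6.79 and 3.61 in sows with many follicles and 6.89, 3.86, 6.82, 7.07 and 7.48 in sows with fewer. Of the first class 4 of 5 sows were at the bottom, and of the other class 1 of 5. Its difference was -2.17 (standard error 0.74, exact permutation p = 0.04) and -2.61 without AI1061, the largest of all genes in both cases. Only 1% of all array values lay under 6.14, and the value of such a dim feature says little. PDPK1, the kinase that activates AKT, read 7.55, 7.66, 5.61, 6.83 and 5.28 against 5.12, 4.67, 6.67, 5.68 and 5.23, a difference of 1.29 (standard error 0.48, exact permutation p = 0.08). LRRC8C, a subunit of volume-regulated anion channels, read 4.11 in AI943 and 6.87 to 7.87 elsewhere, and DLX5, a homeobox gene, ranged from 3.57 to 7.47 over the sows with the classes overlapping.

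**Figure D3:**
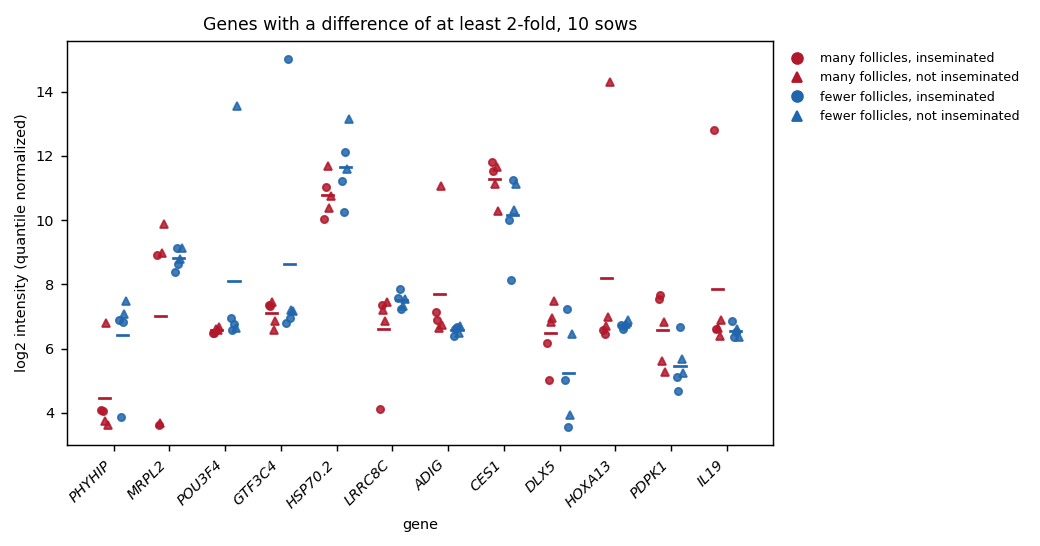
Log2 intensity (vertical axis) of the 12 genes with at least a 2-fold difference between follicle classes, with 1 point per sow and the class mean as a bar. Red marks many and blue fewer follicles, circles inseminated and triangles non-inseminated sows. In HOXA13, POU3F4, GTF3C4, IL19 and ADIG 1 sow lies far above the others, while HSP70.2 and CES1 are spread over both classes.

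Gene lists for the cells and processes of the tissue were described by the number of members higher or lower in mean, beside the 55.4% of all genes that were lower and their median of -0.02. The lists were not tested, and 0 of their members passed limma's adjustment. Most members named below are the 3 of each list with the smallest unadjusted limma p, so that their exact p-values are no independent test. In bulk tissue fewer cells of a type and less RNA per cell cannot be told apart.

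The gene lists named for the cells that ovulation brings to the oviduct showed little difference. In a piece of the whole oviduct these lists do not measure the number of such cells. Of 19 measured genes of cumulus and granulosa cells 7 were higher and 12 lower, with a median of -0.03. These members ran from -0.28 to 0.26. Of 11 oocyte genes 4 were higher and 7 lower, with the same median of -0.03. Without AI1061, 7 of 11 oocyte genes were higher with a median of 0.04, and 9 of 19 cumulus genes with a median of -0.02. None in either list had an unadjusted limma p under 0.05. The mean deviation of the cumulus list ran from -0.06 to 0.03 over sows with many follicles and from -0.14 to 0.13 over sows with fewer. TNFAIP6, a protein that ties the expanded cumulus matrix together, read 6.67, 6.72, 6.93, 6.59 and 6.93 against 7.52, 6.78, 7.02, 7 and 6.92, with AI837 the highest sow, a difference of -0.28 (standard error 0.15, exact permutation p = 0.07). ZP2, a protein of the egg coat, read 6.53, 7.76, 6.92, 7.04 and 7.83 against 6.95, 6.84, 6.61, 6.66 and 6.80. AI993 and AI992 were the high sows, and its 2 features differed in direction, with a difference of 0.44 (standard error 0.25, exact permutation p = 0.21). The egg coat gene ZP4 differed by 0.14 (standard error 0.15). The mean level was under the array median in 12 of the 19 cumulus genes and in 5 of the 11 oocyte genes, where a difference is hard to see.

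Of 14 genes of steroid synthesis and the corpus luteum 4 were higher and 10 lower, with a median of -0.09, and -0.04 without AI1061. Besides CYP11A1 the named members were HSD3B1, the dehydrogenase that forms progesterone, with -0.16 (standard error 0.09, exact permutation p = 0.06), and AKR1C1, named for a reductase that in humans inactivates progesterone, with -0.38 (standard error 0.26, exact permutation p = 0.25). HSD3B1 read 6.65, 6.47, 6.68, 6.7 and 6.5 against 6.81, 6.62, 6.83, 6.73 and 6.8, all under the array median. AKR1C1 was lowest in AI1061 at 6.56 and differed by -0.22 without that sow. Among receptors of steroid hormones and their responsive genes 9 of 17 were higher and 8 lower, with a median of 0.02, and -0.04 without AI993. RBP4, the retinol carrier, was the member furthest up with 0.43 (standard error 0.20, exact permutation p = 0.09) and all 3 features higher. The receptor gene ESR2, for oestrogen receptor beta, differed by -0.17 (standard error 0.12), and NR3C1, for the glucocorticoid receptor, by -0.19 (0.15).

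In the insulin-like growth factor list 7 of 13 members were higher and 6 lower, with a median of 0.01. STC1, stanniocalcin-1, is a secreted hormone that acts on the growth factor system through the protease that cleaves its binding proteins. It was the only member with an unadjusted limma p under 0.05, 1 of 13, beside 53 of 4560 genes (1.16%) in both directions. It read 8.12, 8.38, 7.95, 8.12 and 8.14 in sows with many follicles and 7.63, 8.16, 7.72, 7.54 and 7.82 in sows with fewer. AI1059 was the only sow with fewer follicles within the range of the other class. The difference was 0.40 (standard error 0.13, exact permutation p = 0.03), 0.41 in inseminated and 0.39 in non-inseminated sows, but only 1 of its 2 features was higher.

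The lists furthest from the rest were those of the wall. Of 14 smooth muscle genes 13 were lower and 1 higher in mean, with a median of -0.31, and -0.43 without AI1061, again with 13 lower. TPM1, a tropomyosin of the thin filament, read 10.62, 10.69, 11.05, 10.93 and 10.07 in sows with many follicles and 11.25, 10.58, 11.32, 11.55 and 10.6 in sows with fewer. The lowest sow was AI992 and the highest AI991, and the classes overlapped widely. All 21 of its features were lower, with a difference of -0.39 (standard error 0.25, exact permutation p = 0.18), and -0.21 without AI991. ACTA2, the smooth muscle actin, differed by -0.40 (standard error 0.29, exact permutation p = 0.30) with 7 of 7 features lower, and OXTR, the oxytocin receptor, by -0.13 (standard error 0.11, exact permutation p = 0.24). The contractile genes DES, CNN1 and TPM2, chosen after their values were seen, differed by -0.41 (standard error 0.43), -0.35 (0.58) and -0.33 (0.59), and without AI1061 by -0.55, -0.61 and -0.63.

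Single sows differed more than the classes did. The mean deviation of the smooth muscle list from its mean over the sows was -0.16, -0.17, 0.13, 0.43 and -0.83 in sows with many follicles and 0.33, -0.23, 0.39, 0.66 and -0.54 in sows with fewer. AI992 and AI696, 1 of each class, were the lowest, and AI991 was the highest. The epithelial lists had the opposite sign in these sows, with 0.27 in AI992, 0.49 in AI696 and -0.05 in AI991 for ciliated cells and 0.23, 0.31 and -0.28 for secretory cells. This did not hold in all sows. The ciliated list had the sign of muscle in AI837 (0.12), AI1059 (-0.32), AI792 (0.11) and AI788 (0.25). In AI943, AI993 and AI1061 it had the opposite sign. The secretory list had the sign of muscle in AI792 only (0.09). The part of the epithelial lists in the muscle values was not tested. The classes overlapped over most of their ranges, and since all members were read in the same sows, 13 lower members of 14 are not 13 separate observations. The median was -0.34 in inseminated sows and -0.12 in non-inseminated sows.

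Of 13 genes of fibroblasts and stroma 12 were lower and 1 higher, with a median of -0.19, and all 13 were lower without AI1061, with a median of -0.33. The mean deviation of the list was -0.1, -0.03, -0.18, 0.47 and -0.64 in sows with many follicles and 0.55, -0.13, 0.03, 0.27 and -0.23 in sows with fewer, so that AI992 was again the lowest sow. SPARC, a collagen-binding matrix protein, read 10.35, 9.68, 10.1, 10.26 and 10.11 against 10.62, 9.95, 10.43, 10.95 and 10.45. Only AI1059 among the sows with fewer follicles lay within the range of the other class. The difference was -0.43 (standard error 0.18, exact permutation p = 0.07), with all 7 features lower. TNC, the matrix protein tenascin C, read 8.58, 8.33, 8.27, 7.95 and 8.13 against 8.49, 8.72, 8.8, 8.31 and 8.73, a difference of -0.31 (standard error 0.12, exact permutation p = 0.04). These were the only members with an unadjusted limma p under 0.05 in the list, 2 of 13, beside 53 of 4560 genes (1.16%) in both directions. COL5A2, a fibrillar collagen chain, differed by -0.19 (standard error 0.16), and THY1, a surface protein of fibroblasts that was the only higher member, read 10.08 in AI1061 against 7.57 to 8.37 elsewhere and went from 0.24 to -0.16 without it.

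**Figure D4:**
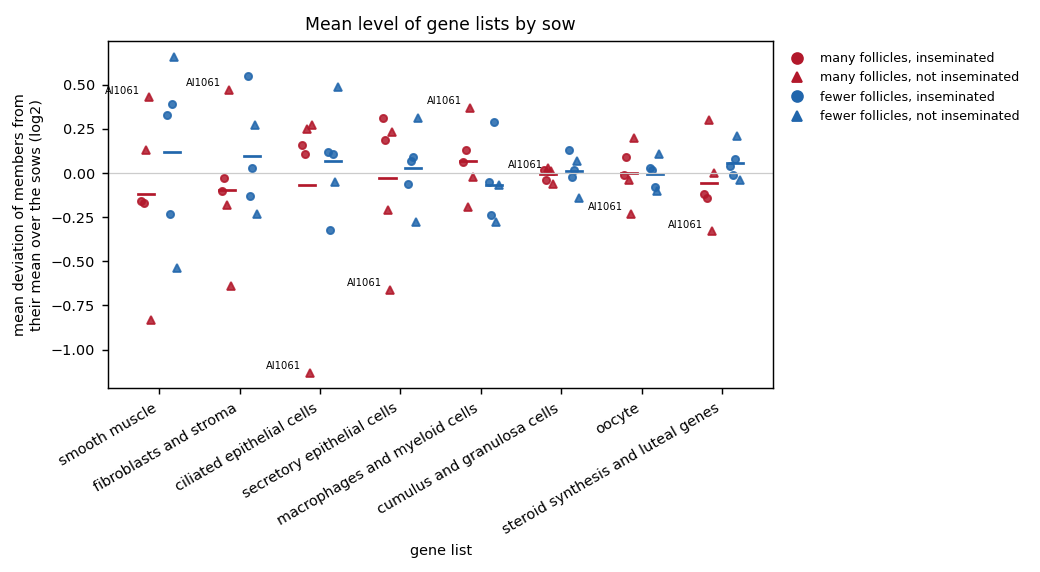
Mean deviation of the members of 8 gene lists from their mean over the sows (vertical axis, log2), with 1 point per sow and the class mean as a bar. Red marks many and blue fewer follicles, circles inseminated and triangles non-inseminated sows, and AI1061 is named. The classes overlap in every list, and AI1061 lies at -1.13 in the ciliated list.

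The epithelial lists depended on AI1061. All 6 measured genes of ciliated cells were lower in sows with many follicles, with a median of -0.12, but without AI1061 the median was 0.12 and 5 of 6 were higher. The mean deviation of the list was -1.13 in AI1061 and between -0.32 and 0.49 in the other sows. DNAH9, a dynein heavy chain of the ciliary axoneme, read 15.23, 15.49, 15.6, 14.47 and 15.34 against 15.62, 15.21, 15.41, 15.21 and 15.75. AI1061 was the lowest sow, and the difference went from -0.20 (standard error 0.22) to -0.03 without it. AK7, an adenylate kinase of cilia, went from -0.18 to 0.10 and SPEF2, a protein of the sperm tail and cilia, from -0.12 to 0.09.

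Of 17 genes of secretory cells 8 were higher and 9 lower, with a median of -0.01, and 11 were higher without AI1061, with a median of 0.14. AI1061 had a mean deviation of -0.66 in this list, below the -0.28 to 0.31 of the other sows, while it had 0.43 in smooth muscle and 0.47 in stroma. MUC1, a mucin of the cell surface, differed by 0.35 (standard error 0.32, exact permutation p = 0.35), C3, the central complement component, by -0.49 (0.48, exact permutation p = 0.42), and the homeobox gene MSX1 by -0.15 (0.11). In the list of proteases and inhibitors 8 of 16 members were higher and 8 lower, and 6 were higher without AI1061. Its named members besides TIMP2 were the proteases MMP19 with 0.22 (standard error 0.13, exact permutation p = 0.07), and 0.14 without AI1061, and MMP1 with 0.22 (0.13, exact permutation p = 0.16). Of 14 enzymes of prostaglandin and eicosanoid metabolism 5 were higher and 9 lower, with a median of -0.02.

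Of the lists of immune cells, that of macrophages and myeloid cells differed most in direction, with 11 of 12 members higher and 1 lower. Its median was 0.12, and without AI1061 it was 0.05 with 8 of 12 higher. The mean deviation of the list was highest in AI1061 at 0.37 and ran from -0.28 to 0.29 in the other sows. SIGLEC1, a sialic acid receptor of macrophages, showed this most, with 6.68, 6.99, 6.49, 9.2 and 7.45 against 6.75, 6.94, 6.89, 6.91 and 6.6, and its difference of 0.47 (standard error 0.44) was 0.09 without AI1061. AIF1, a calcium-binding protein of macrophages, differed by 0.23 (0.24), and 0.09 without AI1061, and CD80, a costimulatory ligand, by 0.13 (0.10). The median was 0 in inseminated sows and 0.19 in non-inseminated sows.

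Of 17 genes of T and NK cells 9 were higher and 8 lower, with a median of 0.01. CD4, the coreceptor of helper T cells, was dim but higher in mean by 0.19 (standard error 0.09, exact permutation p = 0.03) with both features higher. Neutrophil and antimicrobial genes, with 6 of 12 higher, had a median of 0.01, and cytokines and chemokines, with 18 of 32 higher, the same. The latter count holds IL8 and CXCL8, which name the same gene and were both higher, as separate members. MHC and antigen presentation genes had 10 of 23 higher and a median of -0.04. It was -0.23 in inseminated and 0.14 in non-inseminated sows, and -0.14 without AI1061. AI792, an inseminated sow with fewer follicles, had a mean deviation of 0.95 in this list, against -0.23 to 0.25 in the other inseminated sows, and the median was 0.11 without it. SLA-5, a class I heavy chain, had the largest difference there, 0.61 (standard error 0.49, exact permutation p = 0.30). Of 26 complement and acute phase genes 12 were higher and 14 lower, with a median of -0.04, and HP, haptoglobin, differed by -0.69 (standard error 0.54, exact permutation p = 0.29) while LBP, which binds bacterial lipopolysaccharide, differed by 0.31 (0.14, exact permutation p = 0.09). Interferon-stimulated genes had 8 of 23 higher and a median of -0.06, and 0.06 without AI1061. Their chemokine CXCL10 differed by -0.59 (standard error 0.49), with -1.25 in inseminated and 0.08 in non-inseminated sows. It read 10.56 in AI792, and without that sow the difference was -0.16, and -0.46 in inseminated sows.

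Heat shock and immediate early genes had 4 of 15 members higher and 11 lower, with a median of -0.11, and -0.17 without AI1061. The median was 0.07 in inseminated and -0.17 in non-inseminated sows. The mean deviation of the list was highest in AI696 at 0.64 and ran from -0.36 to 0.33 in the other sows. Besides HSP70.2 the chaperone genes HSPH1 and DNAJB1 were lower in mean by -0.38 (standard error 0.29, exact permutation p = 0.34) and -0.50 (0.41, exact permutation p = 0.37). HSPH1 differed by -0.15 without AI696, by -0.20 without AI792 and by -0.60 without AI991. DNAJB1, a cochaperone of Hsp70, read 10.88, 11.21, 11.32, 10.89 and 10.79 against 10.93, 10.2, 11.64, 11.21 and 13.04. AI696, a sow with fewer follicles, was far above all others here and the highest sow for HSP70.2 too. In inseminated sows DNAJB1 differed by 0.12 and in non-inseminated sows, where AI696 belongs, by -1.13, and over all sows by -0.01 without AI696.

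Of 18 cell cycle genes 8 were higher and 10 lower, with a median of -0.02, and its named members PLK1, a mitotic kinase, and CCNB1, a mitotic cyclin, differed by -0.25 (standard error 0.15) and -0.30 (0.19), the latter by -0.18 without AI1061. Hypoxia and glycolysis genes had 4 of 16 higher and a median of -0.06, and 10 of 16 were higher without AI1061, with a median of 0.02. Of 20 antioxidant and detoxifying enzymes 11 were higher, with a median of 0.01 and members between -0.97 and 0.22. Of 25 cytosolic ribosomal proteins 15 were higher, with a median of 0.03 and members between -0.12 and 0.13. Of 17 endothelial genes 8 were higher and 9 lower, with a median of -0.01. KDR, a receptor of vascular endothelial growth factor, differed by -0.68 (standard error 0.52), but it read 10.33 in AI696, and the difference was 0.06 without that sow. Red blood cells and B and plasma cells had 2 measured genes each, with differences between -0.12 and 0.08.

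**Figure D5:**
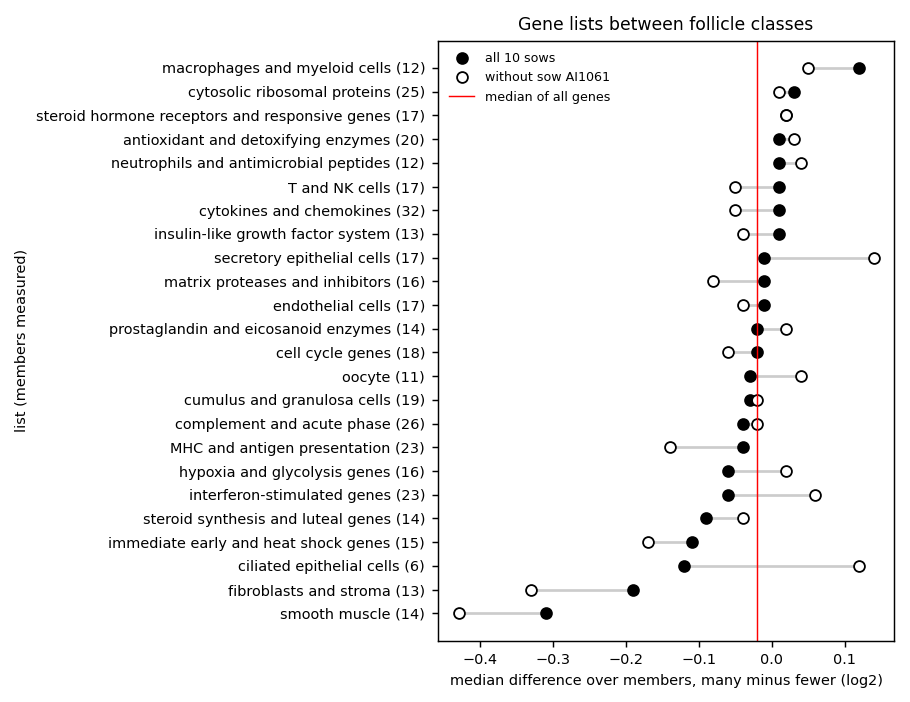
Median difference between follicle classes (horizontal axis, log2, many minus fewer) over the members of 24 of the 26 gene lists, those with at least 5 measured members, given in brackets. Filled points are all 10 sows, open points leave out AI1061, and the red line is the median of all genes. Smooth muscle lies lowest at -0.31, and the ciliated list moves from -0.12 to 0.12.

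Whether the difference between follicle classes was itself different in inseminated and non-inseminated sows was tested with an interaction term in limma. None of the 45220 features passed (0%), with a smallest adjusted p of 0.9991, and 938 (2.07%) had an unadjusted p under 0.05. Over genes the count was 0 after adjustment and 68 at an unadjusted p under 0.05. With 2 or 3 sows in each cell of this design the term has little precision, as the standard error of 1.10 for CES1 shows. The count after adjustment depended on single sows, and it was 34 without AI943, 31 without AI993, 8 without AI696, 3 without AI991 and 1 without AI992. Without AI943 or AI993 the inseminated sows with many follicles, and without AI991 or AI696 the non-inseminated sows with fewer, were down to 1 sow, which is assumed to vary like the others.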

How the data were processed

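Total RNA of the ampullary-isthmic junction of 10 sows was hybridized to Agilent porcine arrays, 1 per sow. Spot intensities were read with GenePix by the authors, who removed the background with limma's normexp (offset 10) and then quantile normalized, and the deposited values are log2 intensities, used here as deposited. Sorted values differ by at most 0.054 between arrays. Raw scanner values, flags and control spot marks were not used here, so all 45220 features were tested. The number of arrays limits the precision.

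Insemination came from the labels and the follicle class from the animal data sheet of the study, where no sow lay between 26 and 28. Progesterone, surgery day and farrowings were not entered. The classes, gene lists and tests were chosen with earlier results of these data known. Symbols came from the platform annotation, with 6055 features matched by accession to the Sscrofa11.1 reference, which changed 446 symbols. Of the 4560 symbols 2391 had more than 1 feature, and 34930 features without a symbol were tested but not named. No sequences were used.

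The limma package (version 3.58.1, R version 4.3.3, lmFit and eBayes) was used to fit features and gene means with insemination and follicle class as terms, and the code was tested on simulated data. P-values were adjusted over all features or all genes, and single genes were tested by exact permutation within insemination groups. With 1 array per sow, the limma p-values weigh a difference against the spread between sows. Named were 12 genes in each direction above the 40th percentile of mean level, with a 2-fold difference or else one of at least 0.5, and the 3 members of each of 26 lists with the smallest unadjusted p. Alternatives were other centring and normalization, no insemination term, each insemination group alone, a level filter, array weights, a trended and robust prior, the highest-mean feature, an equal-variance test and leaving out each sow. Figures were drawn with matplotlib.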

Additional observations from a re-analysis of the deposited data

Results flagged for a closer look

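Among 228 groups of 5 sows, the follicle classes of 114 named genes, 28 held a sow far from the other 4 of its class, by a gap above Dixon's critical value. Chance flags about 1 in 20 groups of genes taken at random, but some of these genes were named for a value in 1 sow and all were read in the same 10 sows, so the count is not to be read against that share. AI1061 was that sow in 9 cases, AI696 in 6, AI943 and AI792 in 3 each, AI1059, AI991 and AI992 in 2 each and AI993 in 1, while AI837 and AI788 were in none. No cause of these values was tested.

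In AI1061 the values were 8.09 for SLC11A1, 7.82 for IGFALS, a carrier subunit of insulin-like growth factors, 9.13 for SPEF2, 8.2 for LCK, a kinase of T cells, 8.05 for ATXN7, 8.17 for KCNJ15, 7.77 for LHB, 11.07 for ADIG and 6.79 for PHYHIP. It was low in SPEF2 and LHB and high in the others. AI696 stood high at 13.54 in POU3F4, 8.37 in CCNB1, 8.13 in the vessel growth factor gene ANGPT1, 10.33 in KDR and 6.96 in GHSR, and low at 6.46 in KCNJ15.

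AI943 read 11.4 for C3, 12.8 for IL19 and 4.11 for LRRC8C. AI792 was high at 12.1 for C3, 9 for the peptide transporter gene TAP1 and 10.56 for CXCL10, all of them genes of the immune response. AI1059 read 15.01 for GTF3C4 and 3.86 for PHYHIP, AI991 read 10.07 for SLC11A1 and 8.9 for ATAT1, and AI992 read 14.29 for HOXA13 and 12.3 for the vasodilator gene ADM. AI993 read 6.27 for KCNE1.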

How the results depend on the processing

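No feature or gene passed adjustment between follicle classes under any alternative. Counts at an unadjusted p under 0.05 moved with the level filter, which leaves fewer features and genes (113 features higher, 142 lower, 4 genes higher, 10 lower, 383 features for the interaction), with array weights (778, 806, 88 and 106 in the order of the first 4) and with the equal-variance test (49 genes lower). The cause was not tested. Leaving out each sow in turn gave 278 to 621 features higher, 333 to 556 lower, 15 to 45 genes higher, 21 to 47 lower, and 706 to 1794 features for the interaction, of which 0 to 34 passed adjustment. The highest counts of features higher were 621 without AI788 and 607 without AI1061. Genes whose classes did not overlap numbered 6 to 19 higher and 14 to 25 lower, since separating fewer sows asks less, an alternative chosen after seeing the data, as were the counts of lists without AI1061.

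The median of the endothelial list was -0.09 with the highest-mean feature, and that of steroid hormone receptors turned from 0.02 to -0.04 without AI993. The differences of CES1 and CXCL10 in inseminated sows without 1 sow were added after seeing the data. No paired analysis was possible because each array came from a different sow, which belonged to 1 class only. Of 1938 values of named genes under alternatives 35 changed sign and none passed the threshold. With array weights AK7 was 0.13, SPEF2 0.01 and BLNK, an adaptor of B cells, 0.12. With the highest-mean feature SLC11A1 was 0.06, IGF1 -0.07 and BLNK 0.02. In inseminated sows alone HOXA13 was -0.17, NR3C1 0.04, IGF1 -0.07, AK7 0.22, SPEF2 0.04, KDR 0.11, CD79A 0.01, BLNK 0.06, CD80 -0.01, SIGLEC1 -0.02, DEFB1 0, S100A12 -0.12, DNAJB1 0.12, GPI 0.04, ADM -0.02 and GPX3 0.09. In non-inseminated sows alone MUC1 was -0.01 and CXCL10 0.08. Leaving out single sows gave a range of -1.77 to 0.09 for GTF3C4 (0.09 without AI1059), -0.17 to 0.13 for BLNK, -0.28 to 0.04 for SLC4A1, a membrane protein of red blood cells (0.04 without AI788), -0.33 to 0.1 for AK7, -0.24 to 0.09 for SPEF2, -1.06 to 0.06 for KDR and -0.09 to 1.64 for HOXA13 (-0.09 without AI992). AK7, SPEF2 and BLNK turned without AI1061 or AI696, and BLNK also without AI792.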
